A study of Rattus norvegicus with 6 samples.

Results

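The Mx1 locus of the rat was described across cells in which SLC2A10, the gene of the glucose transporter GLUT10, was knocked down by virus-borne short hairpin RNA. Every locus was taken whose transcript starts and ends all lie on chromosome 11 between positions 37850000 and 38000000 in the coordinates of the tables. No source used here names their genome build. This gave 3 of the 13685 loci with a start or an end in any library. All of them carry the Ensembl ID ENSRNOG00000001959, which was given for this work as Mx1. The window was chosen because the level of that ID differed between knockdown and control, so its knockdown and control values are a description, without a test.

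The cells were described as vascular smooth muscle cells (VSMCs), which contract the wall of arteries, grown from the aorta of SD (Sprague-Dawley) rats in a medium with fetal bovine serum. There were 2 libraries of cells infected with control virus (labelled wild type), 2 of cells with interference sequence 2 and 2 of cells with interference sequence 3 against SLC2A10, and both sequences carry the label SLC2A10-/-. By the study's account all groups, controls included, received a virus, and no library of uninfected cells was analysed here. The sequence and replicate numbers were read from the sample titles. The titles name siRNA, the extraction protocol frozen aorta and the design text mice, whereas the study describes shRNA virus and rat cells, and which material was sequenced is not settled here. Nothing says whether replicates were separate cultures, so p-values reflect library-to-library spread, which may be purely technical. In such bulk samples, fewer cells of a type and less RNA per cell cannot be told apart. The deposited values are FPKM, fragments scaled to transcript length and to the mapped fragments of the library. They come without counts, so the depth is unknown. The median FPKM of listed loci lay between 6.50 and 6.94 in the 6 libraries. Of the 12251 Ensembl IDs listed, 0 could be paired with a gene symbol. The level of SLC2A10, the smooth muscle markers and the markers of other cell types were therefore not analysed here. Group labels were taken as given. The study reports a qPCR test of the interference, but its text gives no values.

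Mx proteins are large GTPases of the dynamin family that bind and block incoming viruses in infected cells. In most mammalian cells their genes are nearly silent until type I or type III interferon reaches the cell. Signalling from its receptor then acts on an interferon-stimulated response element in the promoter. Mx RNA is therefore widely used as a readout of interferon signalling.

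The promoter of rat Mx1 in RefSeq is shown as the annotated start region of the gene, where response elements of interferon-induced genes often lie. It spans chr11:50294557-50294856 on the minus strand of the build GRCr8, 250 bases before to 50 bases after the annotated start, and it was matched to the locus by symbol. The capitals mark GAAACT, a hexamer that also ends many response elements.
Mx1 promoter: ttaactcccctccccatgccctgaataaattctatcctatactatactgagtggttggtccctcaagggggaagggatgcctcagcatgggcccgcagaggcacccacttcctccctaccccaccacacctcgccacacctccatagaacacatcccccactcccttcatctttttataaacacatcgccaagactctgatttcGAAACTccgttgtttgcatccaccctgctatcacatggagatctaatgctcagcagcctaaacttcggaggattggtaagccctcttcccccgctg
GAAACT occurred 1 time, its first base 46 bases before the start. On either strand it is found in 16.5% of the 27457 rat promoters of this length, 1 per gene. The longer pattern of GAAA, any 2 bases and GAAA, sought on both strands, had 0 matches in the window and occurs in 3.77% of promoters. Such matches describe letters and do not show a bound site.

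The transcript of Mx1 itself was the locus XLOC_009883, on the minus strand from position 37891156 to 37914983, a span of 23828 bases. Its level, the larger of its summed starts and its summed ends, was 759.5 FPKM in replicate 1 and 651 FPKM in replicate 2 of the control. With sequence 2 it was listed in neither library and its level was set to 0. With sequence 3 it was 1.43 FPKM in replicate 1 and 1.26 FPKM in replicate 2. Thus both controls lay far above all 4 knockdown libraries, and the groups did not overlap. Over all tested loci, 11.2% had both controls above all knockdown libraries, and a further 22.4% had both below. The mean was 705 ± 76.9 FPKM (SD, n = 2) in controls and 1.35 ± 0.118 FPKM (SD, n = 2) with sequence 3. Across single libraries, a control held 455 to 601 times the FPKM of a sequence 3 library. No fold is given for sequence 2, because its 0 stands for a locus not listed, which may be a failed estimate rather than a measured level.

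**Figure D1:**
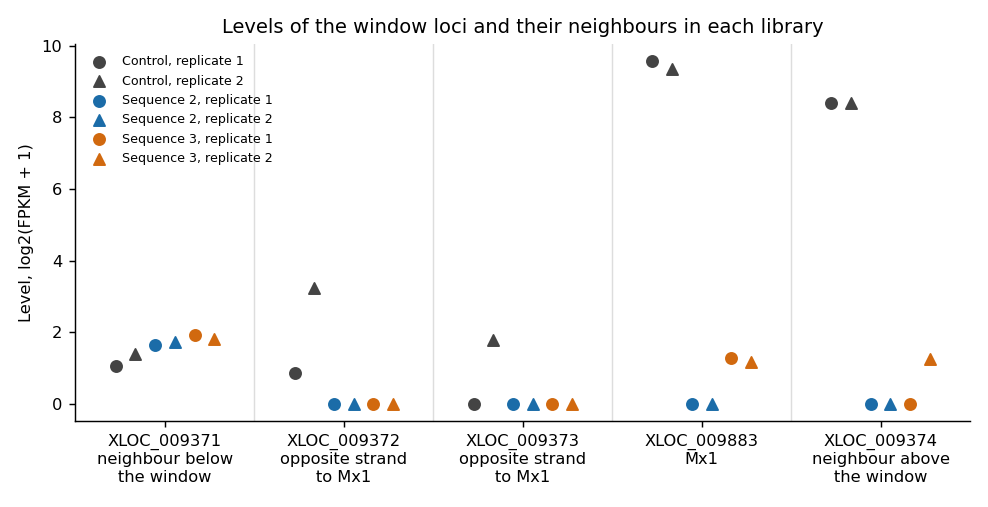
Level of the 3 loci of the window and of the nearest locus on each side in each library, as log2(FPKM + 1), 1 point per library, with 0 for a locus not listed. Mx1 and the neighbour above the window are high in the 2 controls alone, and the neighbour below the window is low in all 6 libraries.

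In the controls Mx1 was one of the most abundant transcripts. It ranked at position 36 of 11837 listed loci in replicate 1 and at position 64 of 11759 in replicate 2, and it held 0.255% and 0.204% of the summed FPKM. In the sequence 3 libraries it stood among the least abundant. Only 17.7% of the listed loci were lower in replicate 1 and 15.7% in replicate 2. The controls differed by a factor of 1.17 at this locus, and 64.1% of the 457 loci with at least 100 FPKM in both controls differed by less. Of these 457 loci, 6 (1.31%) were below 2 FPKM in all 4 knockdown libraries, and 5 were listed in no library of sequence 2. Mx1 belonged to both counts.

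On the log2(FPKM + 1) scale the Mx1 level fell by 8.84 from control to the mean of both sequences (standard error 0.114 from the limma fit), and the difference was -8.23 with sequence 3 alone (standard error 0.132). Both values use the same control libraries. Both standard errors use a spread shared by all groups, to which the sequence 2 libraries, set to 0, add none. Of 10648 tested loci, 0 had a larger fall than Mx1, and 0.695% fell by at least 10-fold on this scale. This place describes the contrast that chose the locus, and a fall on this scale cannot exceed the control level. The value over both sequences sets the 2 libraries of sequence 2 at 0, so it depends on the amount added before the logarithm and is no bound. It was -10.85 with 0.1 in place of 1. By limma at an adjusted p under 0.05, 2.86% of tested loci were lower and 2.25% higher in knockdown, and nothing is read from the place of Mx1 among them, because the locus was chosen from this comparison.

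**Figure D2:**
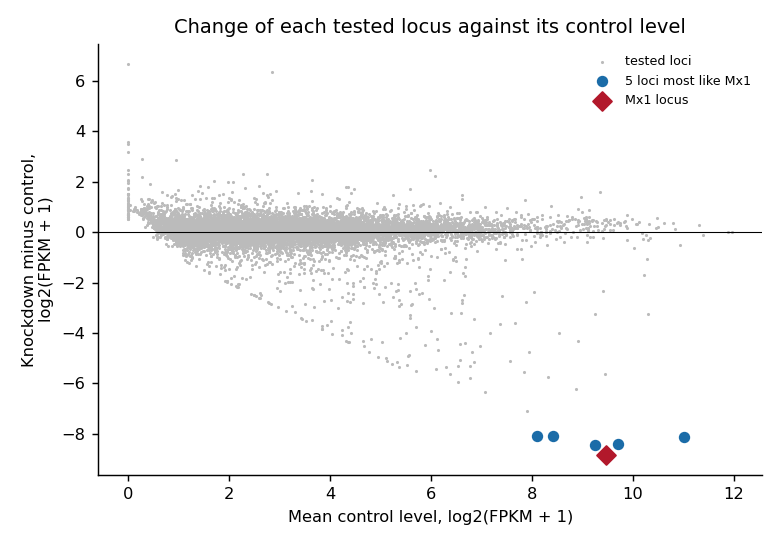
Difference between knockdown and control (vertical, log2 scale of FPKM + 1) against the mean control level (horizontal, same scale) for 10648 tested loci. The Mx1 locus, chosen from this comparison, lies lowest at -8.84, beside the 5 loci whose pattern is most like it.

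The contrast between the interference sequences was not used to choose the locus and was tested. Mx1 was listed in both libraries of sequence 3 and in neither library of sequence 2, a difference of 1.23 on the log2(FPKM + 1) scale (standard error 0.132). Both sequence 2 libraries were set to 0 because the locus was not listed, which is not a measured level. They add no spread of their own to the shared estimate. The standard error and the p-values below may therefore be too small. Both sequence 3 libraries lay above both sequence 2 libraries, as they did at 26.4% of tested loci. This difference did not pass the threshold after adjustment over all tested loci (adjusted p = 0.0765 from limma, unadjusted p = 1.15e-04). At an adjusted p under 0.05, 0.0939% of loci were called in this comparison. The call turned with the amount added before the logarithm. With 0.5 the adjusted p from limma was 0.0213 and with 0.1 it was 0.0048, and over all alternatives it lay between 0.0048 and 0.728. From summed starts alone the difference was 0.64 (adjusted p = 0.728 from limma), since replicate 2 of sequence 3 had no start of this locus.

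The starts of Mx1 were listed in 3 forms, which share their outer end at position 37914983 and differ in the inner end of the first exon. The interval was 25, 91 or 134 bases long. In replicate 1 of the control the short form had 379.7 FPKM, the middle form 287 FPKM and the long form 92.4 FPKM. In replicate 2 these were 309.97, 261 and 79.4 FPKM. The order of the forms was therefore the same in both controls. The short form made up 49.99% and 47.6% of the summed starts, the middle form 37.8% and 40.2% and the long form 12.2% in each library. The share of the main form differed by 2.36 percentage points between the controls. The median difference was 6.597 percentage points over 959 loci with several starts and at least 10 FPKM of summed starts in both controls. Of these loci, which include far lower ones than Mx1, 30.0% differed by less than Mx1.

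In replicate 1 of sequence 3 the long form had 0.711 FPKM, the middle form 0.719 FPKM and the short form, the most abundant in controls, was not listed. The shares were 49.7% and 50.3%. These values come from 1 library at a total of 1.43 FPKM, so the change of shares has no replicate and was not tested. In replicate 2 of sequence 3 no start was listed, only the end. Among the 1177 loci from 1 to 2 FPKM in that library, 16.3% had an end but no start, against 9.58% of 1106 such loci in replicate 1. Whether its missing start belongs to this difference between the libraries was not tested.

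**Figure D3:**
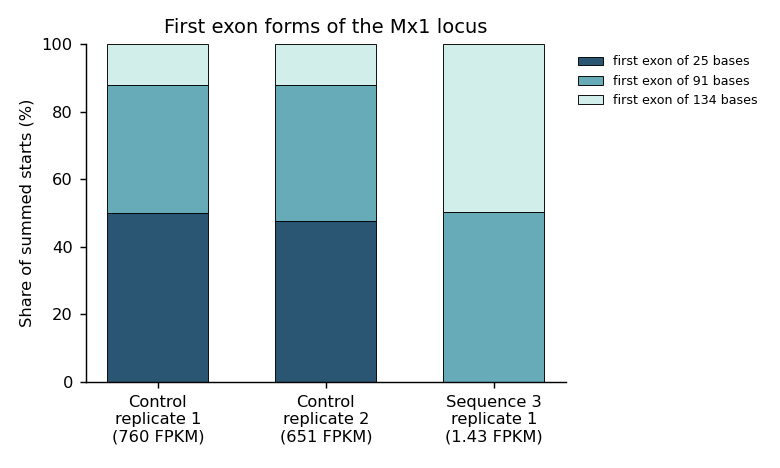
Share of each first exon form in the summed starts of the Mx1 locus (vertical axis, percent) in the 3 libraries that list a start, with the summed FPKM under each bar. The controls resemble each other, and replicate 1 of sequence 3 lists only the forms of 91 and 134 bases, at 1.43 FPKM in all.

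A single end of Mx1, the interval from 37891156 to 37892422 of 1267 bases, was listed in all 4 libraries that list the locus. Its level was equal to that of the locus in each of them, 759.5 and 651 FPKM in controls and 1.43 and 1.26 FPKM with sequence 3. No alternative end was listed in any library. The files list 1 alternative exon in the locus, whose lower border at 37912773 is fixed and whose upper border lies at 37912956 or 37913079. The exon of 184 bases had 759.0 FPKM in replicate 1 and 650.004 FPKM in replicate 2 of the control, and the exon of 307 bases had 0.497 and 0.742 FPKM. The longer exon thus made up 0.0655% and 0.114% of the total. In replicate 1 of sequence 3 the exon of 184 bases alone was listed, at 1.43 FPKM. No exon skipping or intron retention event was listed for the locus in any library.

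The other 2 loci of the window lie inside the span of Mx1 and on the opposite strand. XLOC_009372, from 37891546 to 37892285, overlaps the last exon of Mx1. It had 0.806 FPKM in replicate 1 of the control, as an end without a start, and 8.33 FPKM in replicate 2, as a start without an end. XLOC_009373, from 37905055 to 37912943, had 2.44 FPKM in replicate 2 of the control and was not listed in replicate 1. Neither locus was listed in any of the 4 knockdown libraries. Both were thus listed only in controls, without a share of other low loci for comparison, and the controls did not agree on their level.

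Together these loci reached 0.106% of the Mx1 level in replicate 1 and 1.66% in replicate 2 of the control. Neither had at least 1 FPKM in 2 libraries, so of the 3 loci only XLOC_009883 passed the filter for testing. Neither the labels nor the study state that the library kit marks strand. Reads of Mx1 and of an antisense RNA can then not be told apart, and the levels of both loci are uncertain. In the files as a whole, 308 of 12251 Ensembl IDs (2.51%) were carried by loci on both strands.

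Just outside the window, the nearest loci differed from each other. XLOC_009374 (ENSRNOG00000001963) begins 34794 bases above its upper edge, on the plus strand. It had 339 and 337 FPKM in the controls, was absent from the lists of both sequence 2 libraries and of replicate 1 of sequence 3, and had 1.40 FPKM in replicate 2 of sequence 3. No end of this locus was listed in any library, so these levels rest on its starts alone. Its controls again lay above all knockdown libraries. In replicate 1 and 2 of the control its level was 0.447 and 0.518 of the Mx1 level. On the other side, XLOC_009371 (ENSRNOG00000001953) has 1 of its 2 listed ends inside the window but its start 51630 bases below the lower edge and was therefore not a member. It had 1.08 and 1.65 FPKM in controls, 2.11 and 2.31 FPKM with sequence 2 and 2.77 and 2.48 FPKM with sequence 3. No gene name could be paired with either ID.

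Within 1 Mb on either side of the window, 8 loci were listed, the neighbours included, and 6 were tested. Of these 6, 1 was lower in knockdown by limma, namely XLOC_009374, and 0 were higher, against 2.86% lower and 2.25% higher over all tested loci. XLOC_009374 met the filter for testing only through the controls, where it is high. Among the knockdown libraries, replicate 2 of sequence 3 alone reached 1 FPKM. Its call is therefore a description and gives no support. At an unadjusted p under 0.05, 3 were lower and 1 was higher. The other 5 tested loci had levels of at most 4.85 FPKM in any library, and their differences on the log2(FPKM + 1) scale lay between -0.56 and 0.54. From their low control levels, these 5 loci could not have fallen as far as Mx1 on this scale. Mx1 and XLOC_009374 had the large differences and were also the only tested loci here with high control levels. Whether the change was confined to them can therefore not be read from these values.

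**Figure D4:**
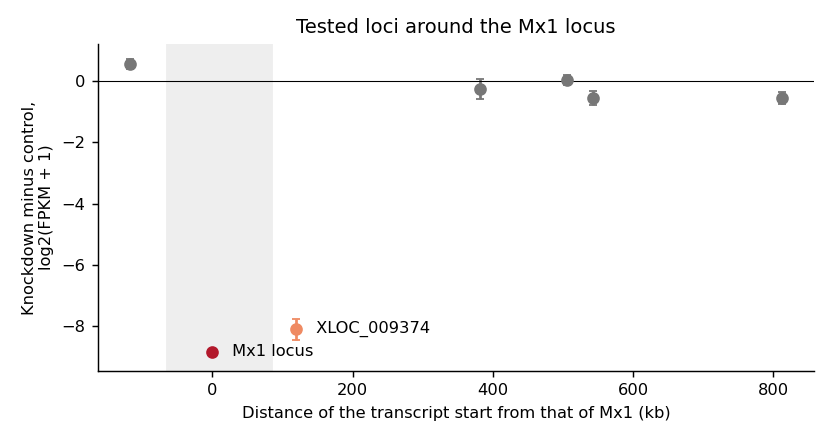
Difference between knockdown and control (vertical, log2 scale of FPKM + 1, bars are standard errors from limma) against the distance of each transcript start from that of Mx1 in kb, for the tested loci within 1 Mb of the window (grey band). Mx1 at -8.84 and XLOC_009374 at -8.09 lie far below the other 5 loci, whose low control levels did not allow such a fall.

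The loci whose pattern over the 6 libraries was most like that of Mx1 were sought among 10313 other tested loci with an Ensembl ID, by the Euclidean distance between log2(FPKM + 1) profiles centred on their means. The nearest was XLOC_001940 (ENSRNOG00000019050) on chromosome 1, at a distance of 0.546. It had 873 and 799 FPKM in controls, 0.670 and 0.526 FPKM with sequence 2 and 3.23 and 2.53 FPKM with sequence 3. As at Mx1 and at 26.4% of tested loci, both sequence 3 libraries lay above both sequence 2 libraries. The difference of means was 1.28 on the log2(FPKM + 1) scale and did not pass the threshold (adjusted p = 0.0848 from limma). The distance uses these values too, so this likeness is a description.

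XLOC_038616 (ENSRNOG00000007539) on chromosome 6 was next, at a distance of 0.647, with 634 and 581 FPKM in controls and 0.156 to 1.42 FPKM in the knockdown libraries. XLOC_013691 (ENSRNOG00000022256) on chromosome 14, at 1.12, was more abundant, with 1990.4 and 2105 FPKM in controls, 2.16 and 3.94 FPKM with sequence 2 and 13.3 and 12.0 FPKM with sequence 3. The neighbour XLOC_009374 was the fourth, at 1.44, with the levels given above. XLOC_017596 (ENSRNOG00000059900) on chromosome 16, at 1.53, had 255 and 289.7 FPKM in controls and was listed in no knockdown library. Pearson's r with Mx1 over the 6 libraries was 0.992 to 0.9998 for these 5 loci. Such values were not particular to these 5 loci, since 110 of the 10313 loci compared had an r of at least 0.99. Of these 110, 106 were lower in knockdown by limma, against 2.86% of all tested loci. A high r with Mx1 already requires high controls and low knockdown libraries. This count was therefore nearly fixed by the choice of loci and is no separate result. The 5 loci with the highest r included 1 of those named here, XLOC_001940.

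**Figure D5:**
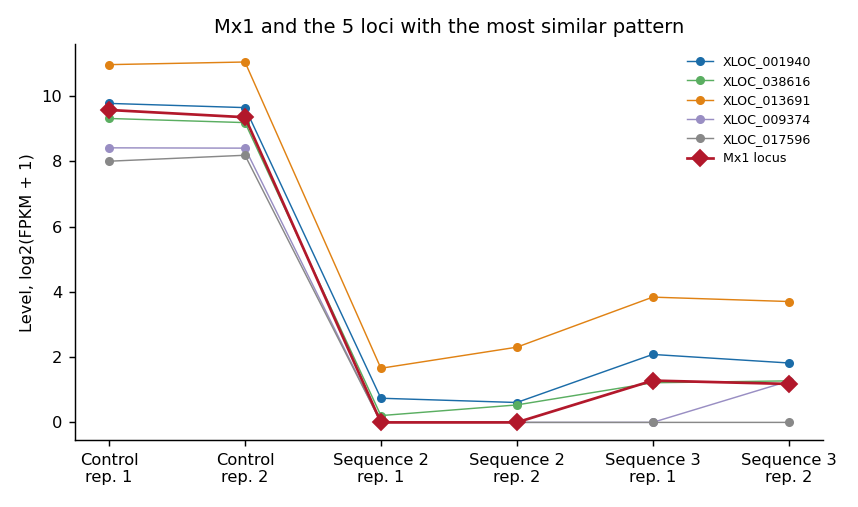
Level of Mx1 and of the 5 loci with the most similar pattern in each library, as log2(FPKM + 1), with lines joining the points of a locus. All 6 loci are high in both controls, and Mx1, XLOC_001940, XLOC_038616 and XLOC_013691 are higher in the sequence 3 libraries than in the sequence 2 libraries.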

How the data were processed

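RNA-seq libraries of 6 samples were analysed. Per library, the authors deposited 1 table that gives FPKM values of transcript starts, transcript ends and splicing events. HISAT2 2.0.1, HTSeq 0.6.1, bcl2fastq 2.17.1.14, SAMtools 0.1.18, Trimmomatic 0.30 and StringTie 1.0.4 are named in the submitters' processing notes without a role. The genome build and annotation are stated neither in the labels nor in the study.

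Repeated events were dropped, events were summed per locus, and an unlisted locus was set to 0. Starts and ends, where both were listed, differed by at most 0.1% in 75.4% of cases. The test was limma 3.58.1 (R 4.3.3) on log2(FPKM + 1), with a mean for each group, a mean-variance trend and Benjamini-Hochberg adjustment. It covered the 10648 loci that reached 1 FPKM in at least 2 libraries. Changes of low loci are understated on this scale. The model was tested on simulated data. Python 3.11.15 with pandas 2.3.3 served to read and sum the tables. Named loci are those of the window, the nearest on each side, and the 5 nearest in pattern. The members and lists were chosen with earlier results of these data known. The planned interferon list of 93 symbols and the 20 cell type markers were not analysed, because 0 symbols could be paired with an ID. Other added amounts, filters, scalings and left-out libraries were tried, with effects given in the closing section.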

Additional observations from a re-analysis of the deposited data

How the results depend on the processing

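The Mx1 level remained lower in knockdown than in control under all 13 alternatives run. The locus was chosen from this comparison and its levels left no room for another sign, so this gives no support. The difference on the log2 scale was -10.85 with 0.1 added, -9.52 with 0.5 added, -9.14 from summed starts and -9.04 after quantile normalization. It lay between -8.96 and -8.73 when 1 library was left out. By construction, a smaller added amount widens the gap to libraries at 0. The difference between sequence 3 and sequence 2 at Mx1 was 3.85 with 0.1 added and 1.88 with 0.5 added, where it passed the threshold. It lay between 1.18 and 1.28 with 1 library left out and did not pass. Sums per Ensembl ID, an alternative chosen after seeing the data, gave -8.86 between knockdown and control, and the difference between the sequences again did not pass.

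Flanking loci called numbered 0 from summed ends, where XLOC_009374 has no value, and 0 when an FPKM of at least 1 was required in at least 4 libraries, which removes that locus. They numbered 1 to 1 with 1 library left out. Over all loci, 119 to 349 were called lower and 45 to 281 higher with 1 library left out, with 119 lower without either control replicate, and with 45 and 62 higher without control replicate 1 or 2 and 63 and 77 without replicate 1 or 2 of sequence 2. The cause was not tested. Samples with the same replicate number were not paired (correlations of deviations -0.06, 0.18 and -0.08). With the replicate block, 127 loci were higher, and the adjusted p of Mx1 between the sequences was 0.170 from limma. By Pearson's r in place of distance, 1 of the 5 loci most like Mx1 was named. The alternatives of the interferon list were not run, nor was quantile normalization of the loci opposite to Mx1, which are not in the tested set. What the depth limits cannot be given.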
